A study of Mus musculus with 2 samples.

Results

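The 10 transcription factor genes described here, Batf, Irf4, Prdm1, Rora, Gata3, Maf, Nfil3, Id2, Bhlhe40 and Pparg, are linked in Treg biology to cells that leave the resting state and settle in tissues. They were taken by symbol from the 24346 gene symbols that both deposited tables list, and all 10 were found. The tables hold bulk RNA-seq values from Foxp3-DTR-GFP (FDG) mice, in which the endogenous Foxp3 locus drives a fused diphtheria toxin receptor and GFP, so that GFP marks Foxp3-expressing cells. All mice had received BLM, given into the trachea at 50 μg to animals of 10 to 16 weeks according to the methods, and GFP+CD4+ T cells were sorted on day 15 from spleen and from lung. Each of the 2 libraries, 1 for each tissue, holds pooled cells of 3 mice, and no untreated mice enter this comparison, so tissue is the only difference between the libraries that the labels name.

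Tregs of lymphoid organs resemble resting T cells and use factors such as TCF-1 and BACH2. Tregs in tissues switch to another set. BATF, which binds DNA together with JUN proteins, and IRF4, which is induced by T cell receptor signals and binds beside BATF, drive the effector program. Blimp-1 (the product of Prdm1), GATA3, c-MAF, RORα (from Rora), NFIL3, BHLHE40 and the lipid-sensing nuclear receptor PPARγ adapt the cells to particular tissues, and ID2 keeps E proteins away from DNA.

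Every one of the 10 factors was higher in the lung library as deposited, although Gata3 turned to lower when the libraries were rescaled to TPM, and Gata3, Maf and Batf turned to lower when both libraries were set to the same level of Foxp3. Values are FPKM, which scale the fragments of a gene to its exon length and to the mapped fragments. The median of the 10 was 16.1 FPKM in spleen and 41.4 in lung. Of the 10, 8 were over 2-fold higher in lung, 0 were over 2-fold lower, and 3 (Id2, Rora and Pparg) were over 4-fold higher. Among the 12094 genes that reached 1 FPKM in spleen or lung, 51.5% were higher in lung, 17.8% were over 2-fold higher and 15.5% were over 2-fold lower. The ratio of Id2, the lowest of the 3 past 4-fold, stood above that of 90.4% of these genes. Among genes that reached 10 FPKM in spleen or lung, which all 10 factors reached, 11.6% were over 2-fold higher. The median log2 ratio of lung to spleen was 1.31 for the factors (2.49-fold) and 0.03 for all 12094 genes. No factor passed the 20-fold difference that the study used to call lung genes, which 3.27% of the 12094 genes passed.

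**Figure D1:**
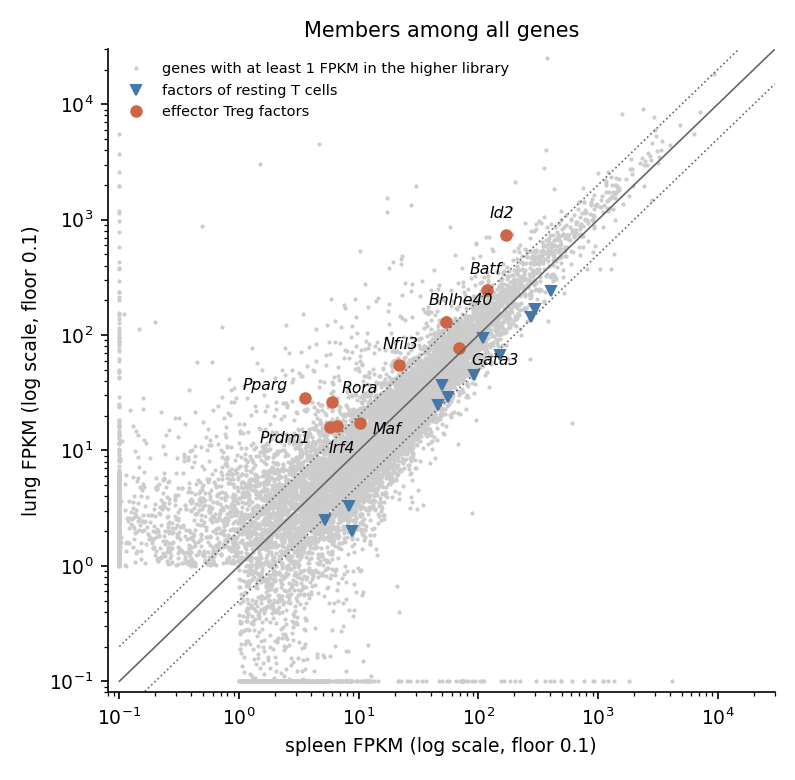
FPKM in spleen (x axis) and lung (y axis), both on log scales with values under 0.1 set to 0.1. Grey points are the 12094 genes that reached 1 FPKM in spleen or lung, orange circles the 10 effector Treg factors and blue triangles 12 factors of resting T cells; the solid line marks equal values and the dotted lines 2-fold. As deposited, all 10 orange points lie above the line of equal values and all 12 triangles below it; on the TPM scale Gata3 would fall below it, at equal Foxp3 Gata3, Maf and Batf would, and on that of T cell genes Lef1, a triangle, would rise above it.

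With 1 library for each tissue there is no spread between mice, and no p-value is given. The reads behind each value were estimated from the low FPKM, which mostly lie near whole multiples of what 1 read is worth, and the 95% intervals below follow from these reads. They cover counting error only, since PCR copies of 1 molecule are counted separately. The factors rested on about 58 reads (Pparg in spleen) to about 9217 reads (Id2 in lung). FPKM summed to 599633 in spleen and 808853 in lung, and rescaling both sums to the same total (TPM) lowers every log2 ratio above the floor by 0.43.

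The sort was checked against its markers before the factors were compared. Foxp3 had 18.7 FPKM in spleen and 41.8 in lung, Cd4 had 195 and 179, and Cd3e had 513 and 369. Of 8 Treg markers, Foxp3 included, 4 were higher and 4 lower in lung as deposited, with a median log2 ratio of 0.12 that turned negative on the TPM scale and at equal Foxp3. Lrrc32, which presents latent TGF-β on Tregs, had 69.4 and 30.4 FPKM, over 2-fold lower in lung, Izumo1r had 512 and 318, and Il2ra, the IL-2 receptor α chain, had 89.4 and 59.1. None of 12 T cell genes differed over 2-fold as deposited, and their median log2 ratio was -0.24. Markers of other cells were listed as well. All 12 macrophage markers were higher in lung as deposited, Csf1r and Mrc1 turned to lower on the TPM scale and Adgre1 as well at equal Foxp3, with a summed level of 518 FPKM in spleen (0 to 376 for single genes) and 26862 in lung (2.43 to 24947), and only Krt79 was listed at 0, in spleen. Summed levels of the 8 dendritic cell markers were 17.1 and 55.2 FPKM, with Clec9a and Batf3 at 0 in lung. Of the 7 that reached 1 FPKM, 4 were higher and 3 lower in lung as deposited. Itgax (1.36 and 24.1 FPKM), Zbtb46 (1.70 and 11.5) and Cd209a (3.86 and 15.3) were over 2-fold higher, and Flt3 and Batf3 over 2-fold lower. For 9 B and plasma cell markers summed levels were 310.0 and 139.5 FPKM, with Tnfrsf17 at 0 in lung. For 8 markers of NK and innate lymphoid cells they were 12.5 and 14.5 FPKM, with Ncr1 and Klra8 at 0 in lung and Il13 at 0 in both. Of the 6 that reached 1 FPKM, 3 were higher and 3 lower in lung as deposited. Il23r (0.296 and 6.37 FPKM) was over 2-fold higher, and Ncr1 and Eomes were over 2-fold lower. Summed levels of 8 fibroblast markers were 0.290 and 163 FPKM. Those of 8 lung epithelial markers were 12.8 and 3133 FPKM, of which Scgb1a1 alone made up 1.48 and 3021. Of these 8, 6 were higher in lung as deposited, and Epcam (8.75 and 1.79 FPKM) and Ager (2.27 and 1.74) were lower. Summed levels of 8 neutrophil markers were 487 and 1214 FPKM, with Camp and Ngp at 0 in lung and the other 6 higher in lung as deposited. The CD8 gene Cd8b1 was at 19.9 and 74.8 FPKM. The part of such cells in the levels below was not tested, and in these bulk libraries fewer cells of a type cannot be told apart from less RNA per cell.

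Id2 was the highest of the 10 factors in both libraries and Batf followed it in both. In spleen the order went on with Gata3, Bhlhe40, Nfil3, Maf, Irf4, Rora, Prdm1 and Pparg. In lung it went on with Bhlhe40, Gata3, Nfil3, Pparg, Rora, Maf, Irf4 and Prdm1. The highest and the lowest factor were 48.0-fold apart in spleen and 46.0-fold apart in lung. Pparg thus moved from the last place to the sixth, and Bhlhe40 and Gata3 changed places. Counting intervals overlapped between Irf4, Rora and Prdm1 as neighbours in spleen, and in lung between Pparg and Rora, between Maf and Irf4 and between Irf4 and Prdm1. All other neighbours in these orders were apart by counting alone.

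**Figure D2:**
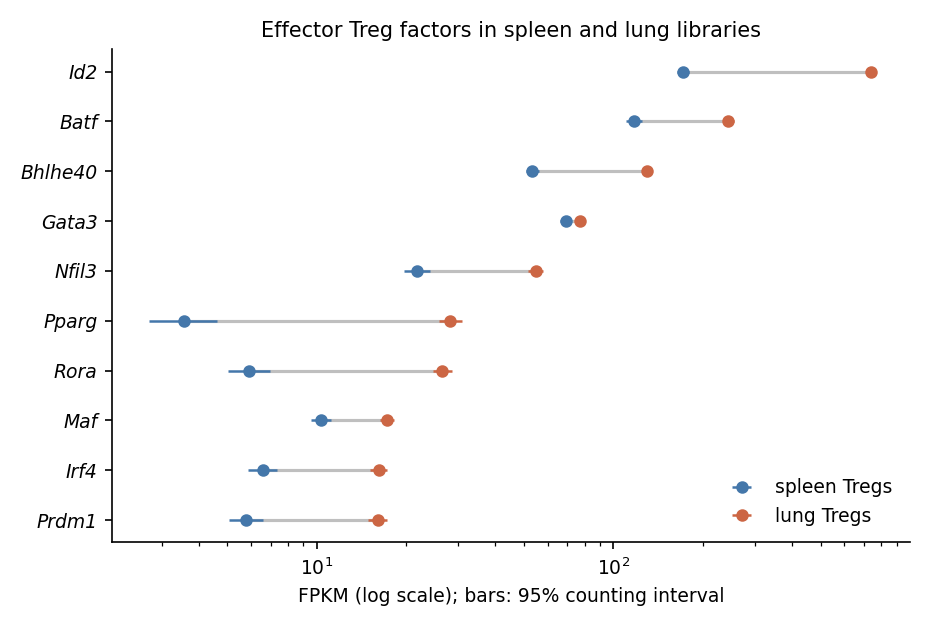
FPKM (x axis, log scale) of each factor in spleen Tregs (blue) and lung Tregs (orange), with bars for the 95% counting interval, ordered by the lung level. As deposited, each orange point lies to the right of its blue point, from 69.1 and 77.3 FPKM for Gata3, which turns to lower in lung on the TPM scale and, with Maf and Batf, at equal Foxp3, to 3.57 and 28.2 for Pparg.

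BATF and IRF4 act together on shared DNA elements. Batf lies on chromosome 12 of GRCm38 (85686669 to 85709087, plus strand) and had 117 FPKM in spleen and 244 in lung. That was 2.08-fold higher in lung (counting interval 1.92 to 2.25), so that Batf stood close to the 2-fold mark. Its paralogs Batf2 and Batf3, factors of the same small family, were far below it in both libraries. Batf3, at 3.83 FPKM in spleen, was listed at 0 in lung, as was Batf2, at 0.332 FPKM in spleen. The 3 JUN partners were listed well above 0 in both libraries, with Junb at 671 FPKM in spleen and 959 in lung, Jun at 132 and 82.6, and Jund at 128 and 121. None of the 3 differed over 2-fold as deposited, and Jun did on the TPM scale.

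Irf4, on chromosome 13 (30749226 to 30766976, plus strand), had 6.57 FPKM in spleen and 16.2 in lung, which was 2.46-fold higher (2.16 to 2.82). It was a minor part of its family by level, with 1.12% of the summed FPKM of the 9 IRF genes in spleen and 3.27% in lung. Irf1, which responds to interferon, was the highest of them at 264 FPKM in spleen and 181 in lung. Of the 8 paralogs, 0 were over 2-fold higher in lung as deposited. Irf4 was thus the only IRF gene over 2-fold higher in lung as deposited. On the TPM scale it was not, and with T cell genes set equal Irf5 passed 2-fold as well. Irf8, which B cells and myeloid cells use, had 34.5 and 21.2 FPKM, more than Irf4 in both libraries.

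Spi1, which encodes PU.1, a partner of IRF4 in myeloid and B cells, had 11.6 FPKM in spleen and 44.2 in lung, beside the macrophage markers given above. Ikzf1, another partner, was at 56.1 and 28.8 FPKM.

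Blimp-1 is a zinc finger repressor that effector Tregs need to make IL-10. Prdm1 lies on chromosome 10 (44437177 to 44528501, minus strand) and had 5.79 FPKM in spleen and 16.03 in lung, a 2.77-fold higher level in lung (2.38 to 3.23). Of 13 other PRDM genes, 5 reached 1 FPKM and 0 were over 2-fold higher in lung. Prdm1 took 13.8% of the summed FPKM of the family in spleen and 43.1% in lung. Among its 4 corepressor partners, Hdac2 (79.5 and 28.9 FPKM) and Kdm1a (35.4 and 16.5) were over 2-fold lower in lung, and Hdac1 (180.0 and 141.7) and Ehmt2 (18.1 and 25.3) were within 2-fold.

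The RefSeq promoter window of Prdm1, chr10:44458699-44458998 on the minus strand of GRCm38.p6, held the only AP-1 site found among the windows of the factors, and it is shown for that reason. The window runs from 250 bases before to 50 bases after a transcript start, and capitals mark CAGGTG, an E-box that E proteins bind, 87 bases before the start, and TGAATCA, 48 bases before it, which has the AP-1 form TGANTCA that BATF and JUN bind.

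Prdm1: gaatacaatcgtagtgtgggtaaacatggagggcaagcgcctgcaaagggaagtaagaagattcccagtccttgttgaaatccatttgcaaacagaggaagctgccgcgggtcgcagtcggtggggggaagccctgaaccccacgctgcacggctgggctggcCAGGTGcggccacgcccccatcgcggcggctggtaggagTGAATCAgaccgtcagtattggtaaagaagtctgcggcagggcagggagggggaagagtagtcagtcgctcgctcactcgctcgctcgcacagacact

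PPARγ and RORα are nuclear receptors that read lipids. Pparg, on chromosome 6 (115360951 to 115490399, plus strand), had the greatest ratio of the 10. It had 3.57 FPKM in spleen and 28.2 in lung, or about 58 and 518 reads for the shortest transcript, and was 7.91-fold higher in lung (5.99 to 10.5). This ratio was above that of 93.1% of the 12094 genes. Its paralogs were near 0, with Ppard at 0.417 FPKM in spleen (about 0.904 reads) and 0 in lung, and Ppara at 0.0276 and 0. Its partner Rxra was at 2.98 and 3.95 FPKM and Rxrb at 12.1 and 12.6.

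Genes that PPARγ is known to activate were higher in lung as deposited. Of the 7 listed, 5 reached 1 FPKM, all 5 were higher in lung, although Cpt1a turned to lower on the TPM scale, and 4 were over 2-fold higher. These were Plin2, which coats lipid droplets (11.9 FPKM in spleen and 176 in lung), Cd36, a fatty acid transporter (3.17 and 46.5), Fabp4, a fatty acid binding protein (0.446 and 58.3), and Angptl4 (3.41 and 27.3). Cpt1a, which admits fatty acids to mitochondria, was at 15.2 and 15.9 FPKM. Pparg, Fabp4, Cd36 and Plin2 are also genes of alveolar macrophages, whose markers Ear2 (9.24 and 205 FPKM), Chil3 (17.4 and 1161) and Siglecf (0.0438 and 8.06) were higher in the same library. The part of macrophage RNA in the level of Pparg was not tested.

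Of the 3 promoter windows of Pparg, 2 held AGGTCA, the motif that nuclear receptors bind, and both are shown because Pparg had the greatest ratio. The first lies at chr6:115360894-115361193 and the second at chr6:115362099-115362398, both on the plus strand. AGGTCA starts 28 bases before the transcript start in the first and 9 bases before it in the second, which also holds CAGGTG 247 bases before the start. Capitals mark these matches. The tables give 1 value per gene, so which start was in use is not known.

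Pparg, first window: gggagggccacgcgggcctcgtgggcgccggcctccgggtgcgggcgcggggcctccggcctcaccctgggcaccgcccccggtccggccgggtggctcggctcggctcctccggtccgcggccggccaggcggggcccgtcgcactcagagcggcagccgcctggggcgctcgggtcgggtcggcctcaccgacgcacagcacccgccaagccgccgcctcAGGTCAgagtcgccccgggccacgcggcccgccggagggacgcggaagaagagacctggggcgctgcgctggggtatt

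Pparg, second window: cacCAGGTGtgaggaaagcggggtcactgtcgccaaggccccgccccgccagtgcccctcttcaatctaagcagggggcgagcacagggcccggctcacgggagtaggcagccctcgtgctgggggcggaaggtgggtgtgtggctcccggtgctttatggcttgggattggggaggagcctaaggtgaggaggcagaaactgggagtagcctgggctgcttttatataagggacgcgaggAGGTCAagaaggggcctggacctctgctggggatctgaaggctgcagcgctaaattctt

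Rora, on chromosome 9 (68653786 to 69388246, plus strand), had 5.93 FPKM in spleen and 26.5 in lung. It was 4.48-fold higher in lung, with a counting interval of 3.75 to 5.40 for its shortest transcript of 2591 nt. The longest has 10878 nt, so the reads behind the splenic value lie between about 146 and 656. Its paralog Rorb was listed at 0 in both. Nr1d1, which encodes REV-ERBα and competes with RORα for the same DNA elements, was at 1.40 and 5.08 FPKM. Tnfrsf25, a gene linked to RORα in Tregs, was at 56.0 and 54.0 FPKM.

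Id2 and Bhlhe40 belong to the helix-loop-helix factors. Id2, on chromosome 12 (25093799 to 25097140, minus strand), had 171 FPKM in spleen and 738 in lung, which was 4.31-fold higher (4.10 to 4.53). It ranked 558 of 24346 genes by level in spleen and 177 in lung, and made up 36.8% of the summed FPKM of the 10 factors in spleen and 54.7% in lung. Its paralog Id3, which resting T cells hold at high levels, went the other way, with 152 FPKM in spleen and 66.6 in lung. Id2 therefore took 52.6% of the summed FPKM of the 4 ID genes in spleen and 90.3% in lung. Id1 was at 2.26 and 12.4 FPKM and Id4 at 0 in both.

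The E proteins that ID2 binds were lower in lung in 2 of 3 cases, with Tcf3 at 26.3 FPKM in spleen and 10.7 in lung and Tcf12 at 18.8 and 7.17. The other, Tcf4, which plasmacytoid dendritic cells and B cells also use, was at 1.89 and 7.08 FPKM. The genes nearest to Id2 in both levels, by distance over the log2 FPKM of the 2 libraries, were Psap (193 and 745 FPKM), Ctla4 (221 and 601) and Cstb (123 and 707). With only 2 libraries such nearness carries little, as 96 of the 12094 genes had a log2 ratio within 0.1 of that of Id2.

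Bhlhe40, a repressor that binds E-boxes, lies on chromosome 6 (108660629 to 108666925, plus strand) and had 53.3 FPKM in spleen and 129 in lung. It was 2.43-fold higher in lung (2.29 to 2.57). Its paralog Bhlhe41 was at 0.167 and 0.514 FPKM, which correspond to about 0.925 and 3.24 reads, too few to compare. The antisense gene 0610040F04Rik overlaps exons of Bhlhe40 and was at 0.0631 and 0.314 FPKM. Csf2, which BHLHE40 supports in T cells, had 0.234 FPKM in spleen and 3.50 in lung, or about 1.43 and 24.4 reads.

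NFIL3 and c-MAF are basic leucine zipper factors. Nfil3, on chromosome 13 (52967209 to 52981073, minus strand), had 21.8 FPKM in spleen and 54.7 in lung, which was 2.51-fold higher (2.24 to 2.81). Its relatives Dbp and Tef, which activate through the DNA elements that NFIL3 represses, were over 2-fold lower in lung, with Dbp at 8.66 and 3.41 FPKM and Tef at 9.86 and 3.40. Hlf, the other relative, was at 0.0884 and 2.01 FPKM. Nfil3 took 53.9% of the summed FPKM of these 4 genes in spleen and 86.1% in lung. Havcr2, which encodes TIM-3 and is induced by NFIL3, was at 1.69 and 7.67 FPKM.

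Maf, on chromosome 8 (115682942 to 115707794, minus strand), had 10.3 FPKM in spleen and 17.2 in lung. It was 1.67-fold higher in lung as deposited (1.52 to 1.83), lower at equal Foxp3, and did not pass 2-fold. Among its paralogs, the small MAF gene Mafk was at 20.4 and 21.8 FPKM. Il21, a target of c-MAF in helper T cells, was at 2.24 and 0.825 FPKM (about 7.45 and 3.11 reads, too few to compare). Il4 was at 1.98 and 7.73 FPKM (about 7.85 and 34.7 reads).

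Gata3 differed least as deposited, whereas at equal Foxp3 Batf did. On chromosome 2 (9857078 to 9890034, minus strand), it had 69.1 FPKM in spleen and 77.3 in lung, 1.12-fold higher in lung as deposited (1.06 to 1.18), and lower on the TPM scale (log2 ratio -0.27) and at equal Foxp3 (-0.99). Its ratio stood above that of 56.0% of all 12094 genes, near the middle. The gene 9230102O04Rik, on the same strand, overlaps exons of Gata3 and was at 0 in spleen and 4.18 FPKM in lung. Among genes linked to GATA3, Il1rl1, which encodes the IL-33 receptor ST2, had 2.46 and 25.8 FPKM, Ccr4 had 12.8 and 31.3, and Il5 had 0 and 4.87. Il13 was at 0 in both. Annotated antisense genes also overlap exons of Gata3, Maf and Rora, and as the library kit does not mark strand, their reads and those of the factors cannot be told apart.

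**Figure D3:**
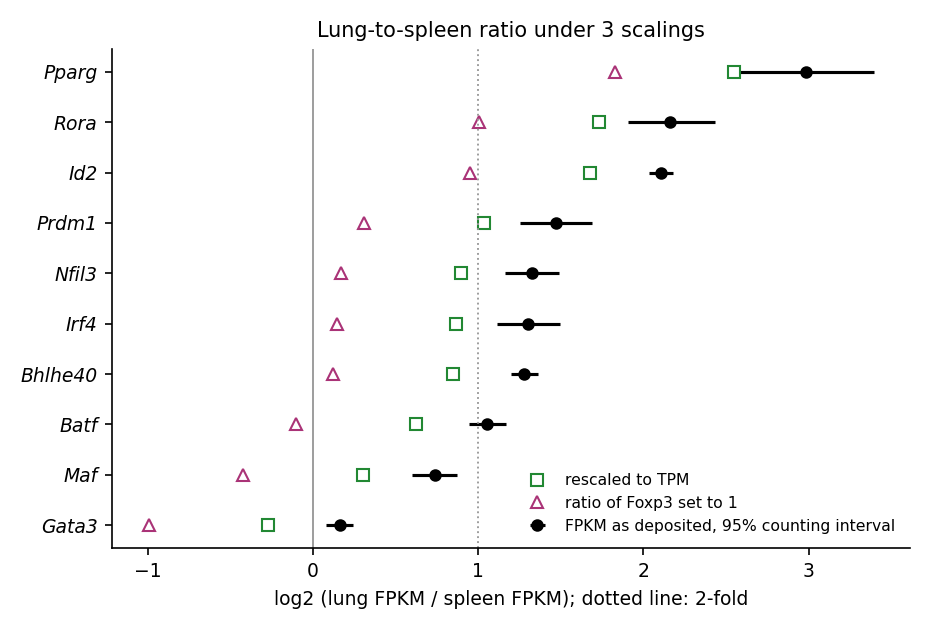
Log2 ratio of lung to spleen FPKM (x axis) of each factor, as deposited with 95% counting intervals (black), after rescaling both libraries to TPM (green squares) and after setting the ratio of Foxp3 to 1 (purple triangles); the solid line marks equal values and the dotted line 2-fold. On the TPM scale Pparg, Rora, Id2 and Prdm1 stay past 2-fold and Gata3 falls below 0, and at equal Foxp3 Pparg and Rora stay past it and Batf, Maf and Gata3 fall below 0.

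Scaling decides how many of the 8 factors pass the 2-fold mark. With both libraries rescaled to TPM, 4 factors passed it (Prdm1, Rora, Id2 and Pparg), against 13.1% of the 12094 genes. With the lung library scaled so that the median T cell gene had a ratio of 1, all 8 passed, against 22.4% of genes. Foxp3 itself was 2.23-fold higher in lung, and when it was set equal in both libraries, a scaling tried once the values were known, 2 factors (Rora and Pparg) passed, against 9.41% of genes, and the median log2 ratio of the 10 was 0.16. Relative to Foxp3, therefore, Irf4, Prdm1, Nfil3 and Bhlhe40 were 0.12 to 0.31 higher in lung on the log2 scale, and Batf was 0.10, Maf 0.42 and Gata3 0.99 lower. As deposited, the other Treg markers ranged from Lrrc32, 2.28-fold lower in lung, to Ctla4, 2.72-fold higher.

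Ratios of 2 genes within a library do not depend on the scaling between libraries. They were formed between factors and a paralog or a gene that opposes them in T cell biology. The ratio of Id2 to Id3 was 1.13 in spleen and 11.1 in lung, a 9.84-fold difference. The ratio of Batf to Bach2, whose product competes with BATF for AP-1 sites, was 13.3 in spleen and 121 in lung, a 9.15-fold difference. Both ratios thus favoured the effector factor more strongly in lung.

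Prdm1 and Bcl6, which repress each other, stood at a ratio of 1.10 in spleen and 6.45 in lung, and Prdm1 to Tcf7 at 0.0212 and 0.112. Nfil3 to Dbp was 2.52 in spleen and 16.03 in lung. Irf4 to Irf8 was 0.191 and 0.764. The greatest difference among these 4 pairs was 6.37-fold, for Nfil3 to Dbp. The ratio of Gata3 to Tbx21, the factor of Th1 cells, differed less, with 8.27 in spleen and 9.87 in lung.

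**Figure D4:**
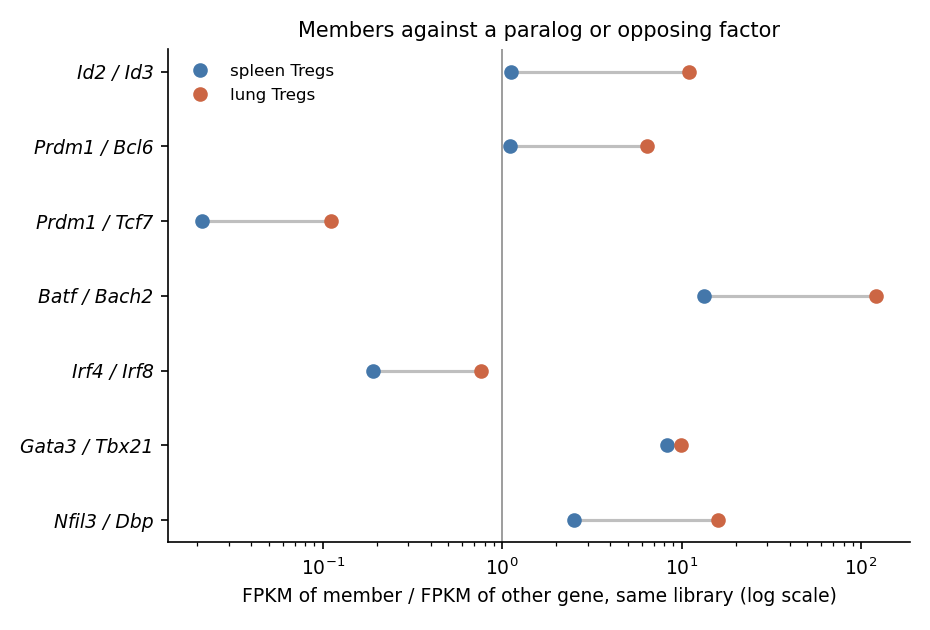
FPKM of a factor divided by the FPKM of a paralog or opposing gene in the same library (x axis, log scale) in spleen Tregs (blue) and lung Tregs (orange), with a line at equal levels, for the pairs given in the text. The ratio moves most for Id2 to Id3 (1.13 and 11.1) and Batf to Bach2 (13.3 and 121), and little for Gata3 to Tbx21 (8.27 and 9.87).

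Factors of resting T cells, which were taken for contrast, moved the other way. All 12 were lower in lung as deposited, although Lef1 turned to higher when T cell genes were set equal. Of the 12, 5 were over 2-fold lower, against 15.5% of all genes, and the median log2 ratio was -0.95. These 5 were Bach2 (8.85 FPKM in spleen and 2.01 in lung), Myb (8.29 and 3.31), Id3, Bcl6 (5.27 and 2.48) and Foxo1 (91.2 and 45.2). Tcf7 was at 273 and 143 FPKM and Klf2, which keeps T cells in circulation, at 296 and 170. The count of genes over 2-fold lower was 10 of 12 on the TPM scale and 2 of 12 with T cell genes set equal. None of the 12 is among the 10 effector factors.

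Known targets of the factors were mostly higher in lung as deposited, and at equal Foxp3 17 of 25 were, with the targets among the 10 factors counted in. Of 26 targets that are not themselves among the 10, 23 reached 1 FPKM and 18 were higher in lung as deposited. Of the 23, 15 were over 2-fold higher, against 17.8% of all 12094 genes, and 2 were over 2-fold lower, against 15.5%. Their median log2 ratio was 2.06. Without the targets of PPARγ, 11 of 18 were over 2-fold higher. They included Klrg1 (34.2 FPKM in spleen and 169 in lung) and Ccr8 (67.2 and 280.0), surface receptors linked to BATF, Icos (59.2 and 248), a costimulatory receptor linked to IRF4, and Gzmb (7.51 and 63.1), a granzyme linked to Blimp-1. Il10, the suppressive cytokine to which 5 of the factors are linked, was at 8.17 and 14.8 FPKM. Bcl6, which Blimp-1 represses, and Il21 were the 2 that were over 2-fold lower. Il21 rested on only about 7.45 reads in spleen and 3.11 in lung, too few to compare.

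Paralogs and partners lay on both sides of equal levels. Of 45 paralogs, 25 reached 1 FPKM, of which 4 were over 2-fold higher in lung, Hlf and Id1 among them, and 7 over 2-fold lower, with a median log2 ratio of -0.16 that turned to 0.08 with T cell genes set equal. Of 24 partners, 23 reached 1 FPKM, of which 4 were over 2-fold higher (Spi1, Lmo4, Tcf4 and Nr1d1) and 6 over 2-fold lower, with a median of -0.34. RORα, NFIL3 and BHLHE40 are also parts of the circadian clock, and of 15 other clock genes 13 reached 1 FPKM, of which 3 were over 2-fold higher (Nr1d1, Per3 and Hlf) and 4 over 2-fold lower (Dbp, Tef, Cry2 and Per2). The core activator genes Arntl (15.8 and 20.6 FPKM) and Clock (3.23 and 2.76) stayed within 2-fold. Among 9 factors of helper lineages, Bcl6 and Eomes were over 2-fold lower in lung, and Stat3 (89.3 and 108) and Stat4 (74.2 and 81.8) were within 2-fold.

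**Figure D5:**
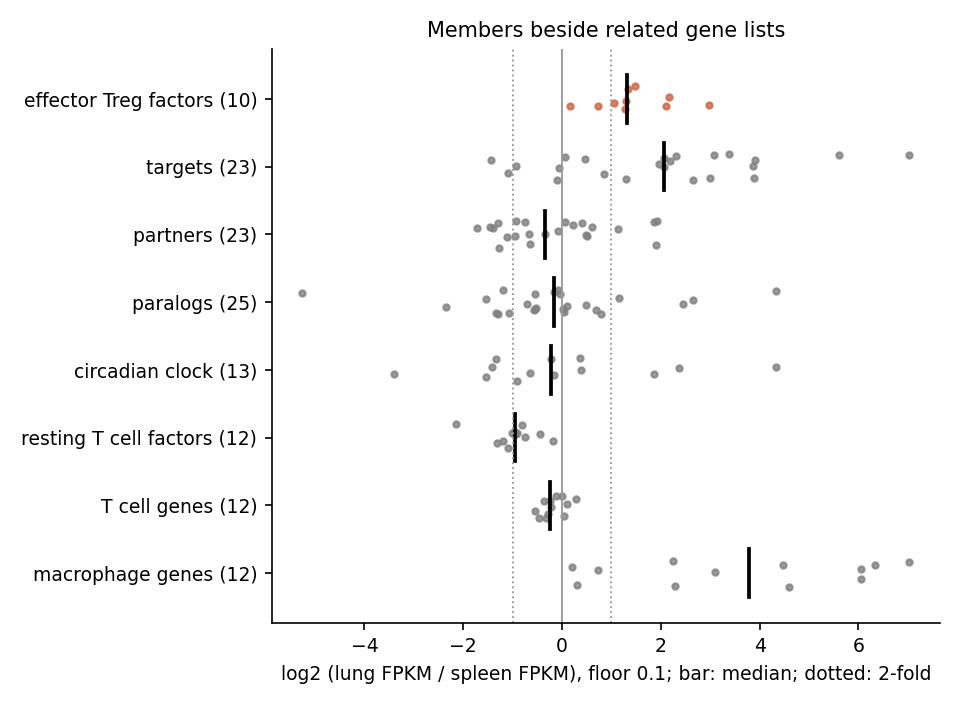
Log2 ratio of lung to spleen FPKM (x axis, values under 0.1 set to 0.1) of the 10 effector Treg factors and of related gene lists, with the number of genes at 1 FPKM or more in parentheses, a point for each gene, a bar at the median and dotted lines at 2-fold. As deposited, the median is 1.31 for the factors, 2.06 for their targets, -0.95 for factors of resting T cells, -0.24 for T cell genes and 3.78 for macrophage genes; setting T cell genes equal adds 0.24 to each, which turns the medians of paralogs and clock genes from below to above 0.

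Promoter windows were searched for motifs that the factors bind, on both strands and with motifs chosen after the values had been seen. RefSeq windows on GRCm38.p6 were found for 8 of the 10 factors, not for Bhlhe40 and Maf, and gave 10 windows because Pparg has 3 starts. TGANTCA (AP-1) was in 1 window of the factors, that of Prdm1, and in 7.81% of all 32851 windows. AGGTCA (nuclear receptors) was in 3 windows, of Pparg and Nfil3, and in 16.3% of all. CAGGTG (E proteins) was in 2, of Pparg and Prdm1, and in 20.2% of all. AGATAA, bound by GATA factors, was in that of Batf and in 11.2% of all, and TGCTGA (MAF) in that of Gata3 and in 19.5% of all.

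CACGTG (BHLHE40), in 7.15% of all windows, was in none of the 10, nor was TTANGTAA (NFIL3), in 2.32%, TGATAA, another GATA form, in 9.05%, or the IRF element (GAAA, any 2 bases and GAAA again), in 3.44%. Its form with GT between, which Blimp-1 also binds, was in 0.253% of all windows and in none of the 10. These matches describe the letters within 250 bases before and 50 bases after a start and are no measure of binding.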

How the data were processed

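Total RNA of sorted GFP+CD4+ cells was made into SMART-Seq HT cDNA and Nextera XT libraries by the authors and sequenced as 75-base single-end reads. Per the submitters' processing notes, TopHat2 2.1.1, SAMtools 0.1.18 and Bowtie2 2.2.8 were used with the mouse build mm10, and the deposited FPKM came from Cuffdiff 2.2.1. The gene annotation, the options of Cuffdiff and any scaling between libraries are not given in the sources used here, and a scaling error would shift every ratio alike.

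FPKM under 0.1 were set to 0.1 and lung was divided by spleen. Genes that reached 1 FPKM in spleen or lung were the background. With 1 library per tissue no test was run. Reads were estimated, by a step designed once the values were known, from FPKM and effective lengths of GENCODE M21 transcripts tied to RefSeq, with fragments of mean 200, SD 80 and at least 73. Of genes with 1 to 10 reads, 74.6% in spleen and 76.9% in lung were within 0.1 of a whole number. Ratios have exact binomial and levels exact Poisson 95% intervals, from the shortest transcript.

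The factors and the gene lists were chosen with earlier results of these data known. Named genes were the 10 factors, their set pairs, label markers and, from each list, the most highly expressed and those over 2-fold; some within 2-fold were named after their values had been seen. Values of some listed genes are not reported here. Steps were tested on simulated data. Scripts ran in Python 3.11.15 (scipy 1.17.1, matplotlib 3.10.9, pandas 2.3.3, numpy 2.4.6).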

Additional observations from a re-analysis of the deposited data

How the results depend on the processing

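A floor of 0.01 or 1 FPKM, a pseudocount of 0.1 or 1 FPKM, a median gene ratio of 1, equal upper quartiles and a minimum of 3 estimated reads left 8 factors over 2-fold higher and 0 over 2-fold lower in lung. After rescaling to TPM 4 factors were over 2-fold higher, the median log2 ratio was 0.88 and that of Gata3 was -0.27. With T cell genes set equal the median was 1.55. With Foxp3 set equal, a scaling tried once the values were known, 2 factors were over 2-fold higher, the median was 0.16, and Batf was at -0.10, Maf at -0.42 and Gata3 at -0.99 on the log2 scale. Which scaling is right was not tested. At a threshold of 1.5-fold 9 factors passed, the lowest of them Maf, whose ratio stood above that of 77.0% of the 12094 genes. At 4-fold 3 passed, the lowest of them Id2, which stood above 90.4%. The share of all genes past these thresholds was not counted. The share of all genes over 2-fold higher was 11.0% with no filter on low values and 11.6% at 10 FPKM or more. No paired analysis was possible because each tissue has 1 library, and variation between mice was not measured.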
